A study of Mus musculus with 6 samples.

Results

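Genes for mitochondrial protein import and protein quality control were followed in AML12, a mouse hepatocyte line derived from an animal transgenic for human TGF alpha. The 43 genes were listed by function, as translocases of the outer and inner membranes, matrix chaperones, proteases and prohibitins, and their symbols were matched to the Ensembl identifiers of the deposited files. Of the 43, 42 were found among 23886 identifiers, and Tomm6 was not analysed here. Of the 42, 41 reached 1 FPKM (fragments scaled to gene length and to library size) in at least 3 of 6 libraries and were tested among 11114 genes. Timm10b stayed below that level in every library. Poly(A) RNA was sequenced from 3 libraries of untreated cells (Control 2, 3 and 4) and 3 libraries of cells kept in a static magnetic field (SMF 1, 2 and 3), which does not vary with time. Both groups were wild type AML12 cells, and no other allele or agent is named. Field strength, exposure time and whether the libraries came from separate cultures were not given in the sources used here, so p-values measure only the spread between these samples, which may be technical. The study's title names cellular respiration, and the comparison of SMF with Control asks whether transcripts of the machinery that builds and maintains mitochondria differ between exposed and untreated cells.

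Nearly all mitochondrial proteins are encoded in the nucleus, made in the cytosol and imported. The TOM complex forms the entry gate of the outer membrane, from which small TIM chaperones carry hydrophobic proteins across the intermembrane space, the SAM complex inserts beta-barrel proteins, and TIM22 and TIM23 serve the inner membrane. A motor built on mtHsp70 pulls precursors into the matrix, a peptidase removes their targeting sequence, the Hsp60 chaperonin folds them, and ATP-dependent proteases such as ClpXP and LON remove those that fail. Hepatocytes are rich in mitochondria, and loss of import or folding capacity is known to start a transcriptional stress response in which ATF4, ATF5 and CHOP take part.

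Library totals recovered from the FPKM steps were lowest in SMF 1 (15514531 reads) and highest in Control 3 (18200516), and the groups overlapped. Hepatocyte markers were partly present. Alb was at 29.2 ± 4.33 FPKM among controls, against 30.4 ± 2.8 among SMF libraries (SD, n = 3), and Hnf4a at 91.6 ± 4.32 and 91.4 ± 1.95, whereas Apoa2 was at 0 in all 6 libraries and Cps1 was close to 0. The summed level of 14 of the 15 hepatocyte markers was 3612 to 3811 FPKM among controls, against 3789 to 3996 among SMF libraries, most of it Krt8 and Krt18. Endothelial markers (5 of 6 in the files) summed to 0.0965 to 0.16 FPKM among controls, against 0.113 to 0.237 among SMF libraries. Fibroblast and stellate markers (8 of 9) summed to 1.43 to 1.94 and 1.48 to 1.81, with Col1a2 and Dcn at 0. Macrophage and leukocyte markers (5 of 8) summed to 177.7 to 196 and 202 to 219, nearly all of it Cd14, with Ptprc at 0.0097 and 0.00721 on average. Cd68 averaged 2.575 FPKM among controls and 2.26 among SMF libraries, and Csf1r 1.19 and 1.31. Cholangiocyte markers (all 6) summed to 1949 to 2064 and 1968 to 2125, mostly from Krt19 and Spp1. Krt7 averaged 61.86 FPKM among controls and 62.55 among SMF libraries, and Sox9 8.99 and 9.55, with Epcam close to 0 and Cftr at 0. The part of the Cd14 and Krt8 levels in the results below was not tested.

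No transcript of import or quality control was called different between exposed and untreated cells in the main test. None passed limma's test on log2(FPKM + 1) with Benjamini-Hochberg adjustment over all tested genes, where 0% of genes were called higher and 0% lower. The smallest adjusted p of a member was 0.158, for Clpx, the ATPase of the ClpXP protease, whose log2 fold of -0.24 was also the largest in size among the 41 members. Folds are SMF minus Control on the log2(FPKM + 1) scale, which understates changes of low genes, and are given ± SE where an error follows them. Levels are given ± SD (n = 3). Of the 41 tested members, 26 had a fold above 0 and 15 below, with a median of 0.04 and a range from -0.24 to 0.21. Of all 11114 tested genes, 46.7% were above 0, with a median of -0.01. The 95% confidence intervals of the members ran from -0.36 at the lowest to 0.56 at the highest, and the median standard error was 0.054. Differences of the size seen for most members were therefore not detectable with 3 libraries a group, which does not show that the levels were equal. In RNA of whole cultures, fewer cells of a kind and less RNA per cell cannot be told apart. A median-of-ratios scaling left 28 members above 0, and rescaling to TPM left 22.

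**Figure D1:**
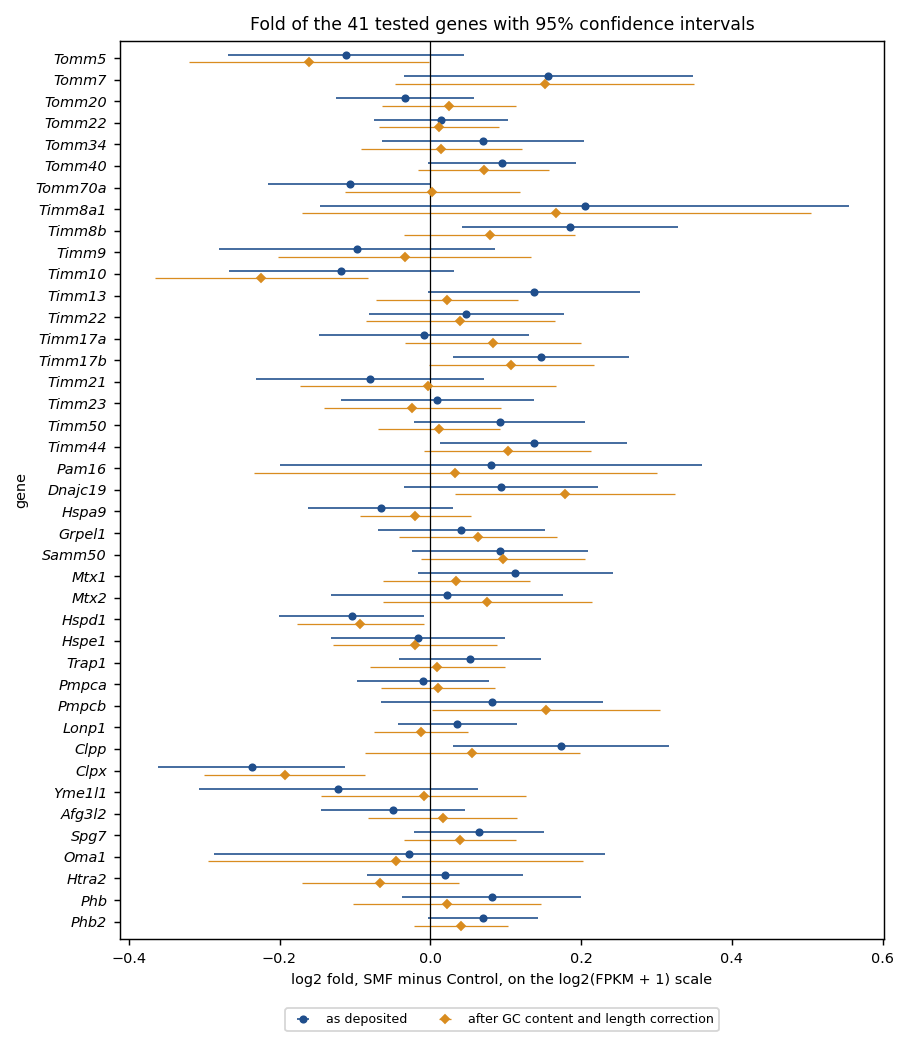
The log2 fold (SMF minus Control, horizontal axis) of the 41 tested genes is shown with its 95% confidence interval from limma, as deposited (circles) and with trends in GC content and gene length removed (diamonds). Clpx lies furthest below 0 as deposited at -0.24 and Timm10 after the correction at -0.22, and most other intervals span 0.

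At an unadjusted p under 0.05, 4 members were higher (9.76% of those tested, beside 9.41% of all tested genes) and 2 were lower (4.88%, beside 8.57%). The 4 were Timm8b, Timm17b, Timm44 and Clpp, and the 2 were Clpx and Hspd1. Without Control 4 the counts were 0 and 1, and with any other library left out they were 3 to 7 and 1 to 3. Shares of all tested genes were not taken for these fits, so the change in counts cannot be read as a trait of the members. For 9 members every SMF library lay above every control (22%, beside 11% of all tested genes), and for 3 every SMF library lay below (7.32%, beside 12.7%). The higher members by this count were Tomm40, Timm8b, Timm17b, Timm44, Dnajc19, Mtx1, Clpp, Spg7 and Phb2, and the lower were Tomm70a, Clpx and Afg3l2. limma-voom on the reads recovered from the FPKM called 2.1% of tested genes higher and 2.28% lower. Among members that test called none higher and Clpx lower (adjusted p = 0.0462). At an unadjusted p under 0.05 it gave 5 members higher and 3 lower (9.42% and 12.1% of tested genes).

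Folds of the members followed the base composition of their longest transcript and, more weakly, the exon length of the gene. Folds of all tested genes did as well. Across the 41 members the Spearman correlation of fold with GC content was 0.515, and with exon length -0.273. Across 11055 tested genes with both properties the values were 0.492 and -0.362. Genes of 1 library share its preparation, so these are descriptions. All 8 members with a GC content over 55% had a fold above 0 (median 0.09, beside 0.07 for all tested genes of that class). Of the 10 members with a GC content up to 45%, 4 were above 0 (median -0.04, beside -0.08). Of the 8 members with exons of up to 1500 bases, 5 were above 0 (median 0.15, beside 0.08). As a composition correction, a smooth trend in GC content and length was removed from each library, which left correlations of 0.0347 and 0.137 among the members. After that correction 28 members had a fold above 0 and 13 below, and the median went from 0.04 to 0.02. Of the 11055 genes, 50.5% were then above 0, with a median of 0.0011. At an unadjusted p under 0.05, limma then gave 2 members higher and 4 lower (6.88% and 5.84% of tested genes). limma-voom after the correction gave 3 and 4 (7.64% and 6.36%), and with adjustment it called none of the members (0.579% and 0.226% of tested genes). After the correction the groups did not overlap for 3 members on the higher side (7.32%, beside 9.93% of all tested genes) and 2 on the lower side (4.88%, beside 8.82%). The higher members were then Dnajc19, Spg7 and Phb2, and the lower were Clpx and Timm10.

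**Figure D2:**
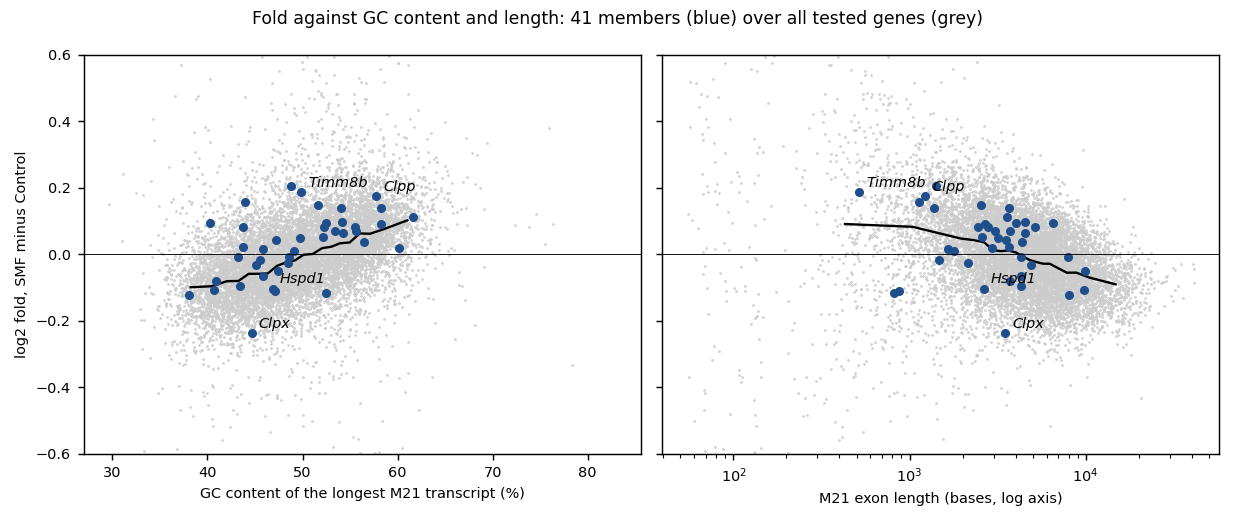
The log2 fold (SMF minus Control) is plotted against the GC content of the longest transcript (left, percent) and the exon length (right, bases, log axis) for the 41 members in blue over all tested genes in grey, cut at 0.6 in either direction. The black lines join medians of groups of equal gene number and slope up with GC content and down with length, and Clpx lies well below both lines.

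Levels spanned a wide range. FPKM is scaled to gene length, so it allows a rough ranking of genes, limited by base composition, shared exons and pseudogene copies. The most abundant was Hspd1 (205.4 FPKM over the 6 libraries), which encodes Hsp60, followed by Hspa9 (190.4), which encodes mtHsp70, and Timm8b (102.9). The lowest tested member was Timm8a1 at 2.67 FPKM, and the median of tested members was 23.3 FPKM against 8.74 for all tested genes. Reads behind a member ran from 18 for Timm10b in SMF 2 to 14999 for Hspa9 in Control 4. Exons of 19 of the 42 members overlapped another gene in the M21 annotation, over 10% of their length in 7. These were Timm8b, Timm10b, Pam16, Grpel1, Mtx1, Pmpca and Htra2. Glis2, at 38.7 FPKM, shares 18.7% of the exon length of Pam16, itself at 5.22 FPKM. The library kit is not stated to mark strand, so reads of such pairs cannot be told apart. Processed pseudogenes named after Hspd1, Hspe1, Hspa9 and Dnajc19 exist in the annotation, and the handling of reads with several matches was not given in the sources used here.

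**Figure D3:**
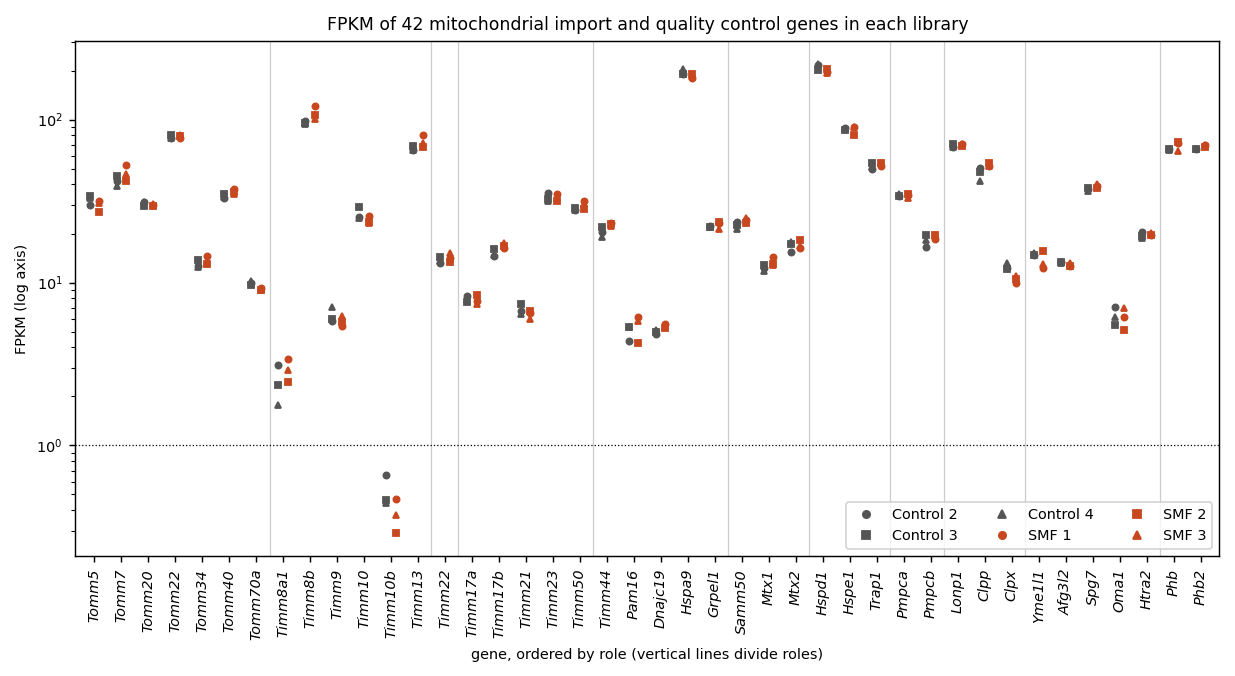
FPKM on a log axis is shown for 42 genes in each of the 6 libraries, with controls in grey and SMF libraries in orange, ordered by role. The dotted line marks 1 FPKM, the level of the filter. Timm10b lies below it in every library, and the groups lie close together for most genes.

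Among the 7 tested genes listed with TOM, which include the cytosolic protein Tomm34, 4 had a fold above 0 and 3 below (median 0.01). None passed the test. Tomm22, the central receptor and the most abundant of them, measured 76.7, 80.9 and 76.9 FPKM in Control 2, 3 and 4 and 76.7, 79.0 and 81.1 in SMF 1, 2 and 3. The groups overlapped almost fully, and the log2 fold was 0.01 with a 95% interval of -0.07 to 0.10. Tomm7, a small subunit that modulates assembly of the complex, had the largest fold of the group, at 42.3, 44.9 and 39.0 FPKM among controls, against 52.9, 42.1 and 46.4 among SMF libraries. SMF 2 fell within the control range, and the fold of 0.16 ± 0.083 (SE) had an adjusted p of 0.358. Without SMF 1 it was 0.072, and without Control 4 it was 0.10. Tomm40, the beta-barrel pore through which precursors pass, was at 33.1, 35.0 and 33.6 FPKM among controls, against 37.7, 36.0 and 35.1 among SMF libraries. The lowest SMF value stood just above the highest control, and the fold of 0.10 had an adjusted p of 0.289. Tomm70a, a receptor for carrier proteins delivered by cytosolic chaperones, was at 9.91 ± 0.313 FPKM among controls, against 9.13 ± 0.153 among SMF libraries, without overlap. Its fold went from -0.11 to 0.0026 after the composition correction. Tomm5, another small subunit, was at 32.3 ± 2.25 and 29.8 ± 2.25 FPKM, and its fold went from -0.11 to -0.16 with that correction (adjusted p = 0.391). The receptor for targeting sequences, Tomm20, and the cytosolic cochaperone Tomm34 had folds of -0.03 and 0.07.

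The small TIM chaperones, which form hexamers in the intermembrane space, had folds of both signs. Folds of the 5 tested were above 0 for 3 and below 0 for 2 (median 0.14, and 0.02 after correction), and none passed the test. Timm8b stood at 98.8, 95.9 and 93.6 FPKM among controls, against 121, 107 and 101 among SMF libraries. All 3 SMF libraries were above the controls, with SMF 1 highest, and the fold was 0.19 ± 0.062 (limma adjusted p = 0.207). Timm8b has the shortest exons of the members, at 518 bases, of which 81 are shared with Nkapd1 on the opposite strand. Its fold was 0.08 after the composition correction, 0.0093 by limma-voom with that correction, and 0.11 without SMF 1. Timm13, whose human counterpart pairs with that of Timm8a1, was at 65.2, 68.7 and 65.2 FPKM among controls, against 80.3, 67.7 and 71.8 among SMF libraries, with SMF 2 inside the control range. Its fold went from 0.14 to 0.02 with the correction. Timm8a1 was low, with 43 to 75 reads a library, at 3.14, 2.36 and 1.78 FPKM among controls, against 3.4, 2.44 and 2.90 among SMF libraries. The groups overlapped widely and the 95% interval ran from -0.15 to 0.56. The fold of 0.21 was 0.063 without Control 4, 0.12 without SMF 1 and 0.35 without Control 2.

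The other hexamer, of Timm9 and Timm10, which guides carrier proteins towards TIM22, had folds below 0. Timm10 measured 25.3, 28.9 and 25.1 FPKM among controls, against 25.8, 23.6 and 23.3 among SMF libraries. SMF 1 lay within the control range, and the fold was -0.12 ± 0.065 (adjusted p = 0.369). After the composition correction the groups no longer overlapped and the fold was -0.22 (unadjusted p = 0.00641, adjusted p = 0.251). Timm9 was at 6.28 ± 0.688 and 5.80 ± 0.384 FPKM, with a fold of -0.10 before and -0.03 after correction. Timm10b, which joins the hexamer to TIM22, was at 0.656, 0.460 and 0.443 FPKM among controls, against 0.468, 0.291 and 0.373 among SMF libraries, on 18 to 39 reads, and entered no test. Timm22, the channel of the carrier translocase, was at 13.2, 14.3 and 13.6 FPKM among controls, against 14.1, 13.4 and 15.1 among SMF libraries. The groups overlapped (fold 0.05 ± 0.056, adjusted p = 0.675), and the fold was 0.0056 without SMF 3, 0.02 without Control 2, 0.08 without Control 3 and 0.09 without SMF 2.

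Of the 5 genes of the TIM23 complex, which takes precursors with a targeting sequence, 3 had a fold above 0 and 2 below (median 0.01). Timm17b was the gene of this group with the largest fold, at 14.6, 16.0 and 14.8 FPKM among controls, against 16.3, 16.8 and 17.5 among SMF libraries. All SMF libraries were above all controls, and the fold was 0.15 ± 0.051 (limma unadjusted p = 0.0194, adjusted p = 0.21). With the composition correction it was 0.11 (adjusted p = 0.397). Its paralog Timm17a was at 7.87 ± 0.363 and 7.82 ± 0.504 FPKM, a fold of -0.01, and the difference between the paralogs was not tested. Timm23, the core of the channel, read 35.5, 32.4 and 31.6 FPKM among controls, against 35.2, 31.8 and 33.2 among SMF libraries. The libraries of both groups were interleaved, with a 95% interval of -0.12 to 0.14. Timm50, the receptor that hands precursors to the channel, was at 28.2 ± 0.51 and 30.2 ± 1.79 FPKM (fold 0.09), and Timm21, which links TOM and TIM23, at 6.82 ± 0.478 and 6.40 ± 0.353 (fold -0.08).

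In the import motor, 4 of 5 genes had a fold above 0 (median 0.08, and 0.06 after correction). Timm44, the scaffold that tethers mtHsp70 to the channel, was at 20.4, 22.0 and 19.1 FPKM among controls, against 23.1, 22.7 and 22.1 among SMF libraries. The lowest SMF library stood just above the highest control, and the fold of 0.14 ± 0.054 had an unadjusted p of 0.0338 and an adjusted p of 0.246 by limma. It was 0.09 without Control 4 (unadjusted p = 0.124) and 0.10 after the composition correction (adjusted p = 0.415). Dnajc19, a J-domain protein of the motor, was at 4.86, 4.98 and 5.12 FPKM among controls, against 5.60, 5.23 and 5.33 among SMF libraries, again without overlap. Its fold of 0.09 became 0.18 after the composition correction (unadjusted p = 0.0223, adjusted p = 0.313). Hspa9, the mtHsp70 itself, had the 1 fold below 0 in the motor, at 190.5, 189.6 and 204 FPKM among controls, against 180.2, 192 and 186 among SMF libraries. Its groups overlapped, and the fold was -0.07 before and -0.02 after correction, -0.03 without Control 4 and -0.04 without SMF 1. Grpel1, the nucleotide exchange factor of mtHsp70, and Pam16, a regulator of its J-domain partner, had folds of 0.04 and 0.08.

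The 3 genes for outer membrane beta-barrel assembly each had a fold above 0 (median 0.09) and none passed the test. Samm50, the core of the SAM complex, was at 23.6, 22.7 and 21.3 FPKM among controls, against 24.2, 23.1 and 24.9 among SMF libraries, with SMF 2 within the control range. Its fold was 0.09 before and 0.10 after the correction (adjusted p = 0.37 and 0.433), and without Control 4 it was 0.053. The metaxins Mtx1 and Mtx2, partners of Samm50, had folds of 0.11 and 0.02, and 21.2% of the exon length of Mtx1 overlaps the predicted gene Gm43737. Of the processing peptidase that removes targeting sequences, Pmpca was at 34.0, 34.1 and 35.2 FPKM among controls, against 34.3, 35.0 and 33.3 among SMF libraries. These values were interleaved, and the 95% interval of the fold ran from -0.10 to 0.08. Pmpcb, its catalytic subunit, was at 18.1 ± 1.61 and 19.2 ± 0.607 FPKM, with a fold of 0.08 before and 0.15 after correction (unadjusted p = 0.0468, adjusted p = 0.384).

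The matrix chaperonin genes Hspd1 and Hspe1 lie head to head on opposite strands and share promoter sequence. Promoter windows of 300 bases (250 before to 50 after a gene's start) come from RefSeq on build GRCm38.p6, where windows were found for 38 of the 43 genes. The Hspe1 window, chr1:55087898-55088197 on the plus strand, shares 285 bases with 1 of 2 windows of Hspd1 on the minus strand. The other Hspd1 window, chr1:55088194-55088493, shares 4 bases and held no match to the motifs named below. The windows of Clpx (chr9:65294010-65294309, plus strand) and Clpp (chr17:56990014-56990313, plus strand) are shown with that of Hspe1, since those partner genes had folds of opposite sign. Capitals mark matches, on either strand, to the 6 motifs searched.
Hspe1: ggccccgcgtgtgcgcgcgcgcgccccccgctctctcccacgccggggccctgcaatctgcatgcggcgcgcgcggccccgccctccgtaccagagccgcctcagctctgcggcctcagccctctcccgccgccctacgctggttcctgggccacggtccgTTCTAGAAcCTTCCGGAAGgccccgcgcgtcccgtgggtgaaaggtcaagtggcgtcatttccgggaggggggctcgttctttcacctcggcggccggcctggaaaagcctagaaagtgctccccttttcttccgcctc
Clpx: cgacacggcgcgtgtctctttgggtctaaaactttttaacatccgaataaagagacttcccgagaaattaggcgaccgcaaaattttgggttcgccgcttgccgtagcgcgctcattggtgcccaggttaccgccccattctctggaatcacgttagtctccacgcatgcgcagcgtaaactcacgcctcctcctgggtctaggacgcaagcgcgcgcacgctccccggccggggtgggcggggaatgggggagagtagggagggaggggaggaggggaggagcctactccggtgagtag
Clpp: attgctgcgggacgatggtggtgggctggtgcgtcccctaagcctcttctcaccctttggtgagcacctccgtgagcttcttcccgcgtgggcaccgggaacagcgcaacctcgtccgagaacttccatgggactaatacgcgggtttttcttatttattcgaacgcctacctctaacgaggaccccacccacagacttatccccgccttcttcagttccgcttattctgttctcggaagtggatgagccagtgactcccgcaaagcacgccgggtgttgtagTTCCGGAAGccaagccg
The motifs were TTCNNGAA (heat shock element core), CCGGAAG (ETS and GABPA core), AAGATGGC (YY1 core), TGATGNAA (C/EBP-ATF composite element), TGACGTCA (ATF6 and CRE core) and the NRF1 palindrome. In the shared window the heat shock core matched at bases 162 and 172 and the ETS core at 171 and 174, and the second heat shock match overlaps the ETS matches. The Clpp window held 1 overlapping pair of those matches, and the Clpx window none of the 6 motifs. Only exact matches were counted, so sites close to a motif, such as variants of the NRF1 palindrome, were not sought. Over all members, 17 of 38 held the ETS core (18 of 41 windows, 43.9%), beside 8.86% of 32851 windows of all genes. The heat shock core was in 9 of 41 windows (22%), beside 8.52%. Of the 38 genes, 6 (Hspd1, Hspe1, Phb, Timm13, Timm9 and Tomm20) held it clear of an ETS match, beside 8.06% of all windows. That count is of genes, some with more than 1 window, and the share is of windows, so they are not like measures. The windows of all genes were not limited to tested genes, and the sequence shared by Hspd1 and Hspe1 counts for each of them. The YY1 core was in 2 members, the ATF6 and CRE core in 1, and the C/EBP-ATF element and NRF1 palindrome in none, beside 2.75%, 1.79%, 3.97% and 0.971% of all windows. These are matches of letters and not shown to be bound sites.

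Hspd1, the Hsp60 chaperonin, measured 216, 203 and 219 FPKM among controls, against 195, 206 and 193 among SMF libraries. SMF 2 reached above the lowest control, and the other SMF libraries lay below all controls. The fold was -0.10 ± 0.042 (limma unadjusted p = 0.0371, adjusted p = 0.251), and it was -0.09 after the composition correction. Hspe1, its co-chaperonin Hsp10, whose window overlaps 1 of those of Hspd1, was at 89.3, 86.3 and 87.7 FPKM among controls, against 89.7, 80.3 and 90.6 among SMF libraries. Its controls lay inside the SMF range, and the fold was -0.02 with an interval of -0.13 to 0.10. The ratio of Hspd1 to Hspe1 was 2.36 to 2.50 among controls, against 2.13 to 2.56 among SMF libraries and overlapped. Exons of both genes share 112 bases, and the pseudogenes named after them are further copies that reads could match. Trap1, the mitochondrial Hsp90, was at 51.7 ± 2.09 and 53.6 ± 1.17 FPKM (fold 0.05, adjusted p = 0.522).

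The genes of the ClpXP protease had folds of opposite sign, neither past the adjusted threshold of limma on log2(FPKM + 1). Clpx, which encodes the ATPase that unfolds substrates and feeds them to the peptidase, was at 12.2, 12.1 and 13.2 FPKM among controls, against 9.96, 10.5 and 10.9 among SMF libraries. Every SMF library lay below every control, on 709 to 784 reads among controls, against 540 to 684 among SMF libraries. The fold was -0.24 ± 0.054 (95% interval -0.36 to -0.11, unadjusted p = 0.0022, adjusted p = 0.158) by limma on log2(FPKM + 1), a ratio of means of 0.836. limma-voom on recovered reads called Clpx lower (log2 fold -0.25, adjusted p = 0.0462), and not after the composition correction (-0.21, adjusted p = 0.143). With limma on log2(FPKM + 1) that correction gave -0.19 (unadjusted p = 0.00311, adjusted p = 0.225), and no overlap between the groups. Clpp, which encodes the peptidase, was at 50.4, 47.8 and 42.2 FPKM among controls, against 52.2, 54.2 and 51.9 among SMF libraries. All SMF libraries were above all controls, with Control 4 lowest, and the fold was 0.17 ± 0.062 (unadjusted p = 0.0233, adjusted p = 0.22). Clpp is short and rich in GC (1223 bases, 57.8%), and its fold was 0.06 after the correction (adjusted p = 0.752) and 0.10 without Control 4. The ratio of Clpp to Clpx was 4.12, 3.96 and 3.2 among controls, against 5.24, 5.18 and 4.76 among SMF libraries. Its lack of overlap follows from the separation of each gene in opposite directions and adds nothing to it. After the correction the groups overlapped for Clpp, and did not for the ratio. This ratio was singled out after its values were seen and carries no test. Neither gene overlaps another in the annotation. Lonp1, the LON protease of the matrix, was at 67.9, 70.4 and 67.6 FPKM among controls, against 71.2, 69.4 and 70.7 among SMF libraries, with SMF 2 within the control range (fold 0.04, adjusted p = 0.599).

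**Figure D4:**
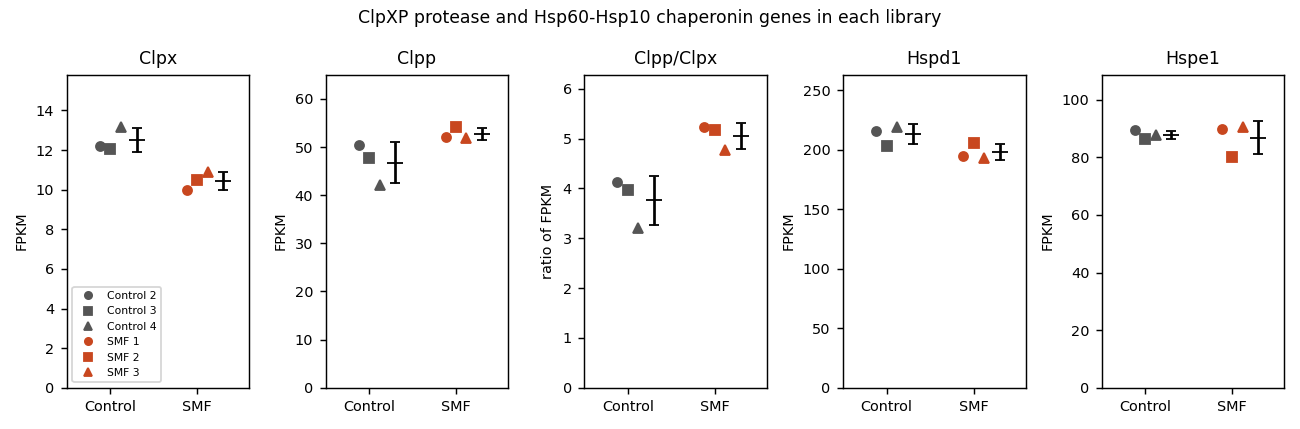
FPKM of Clpx, Clpp, Hspd1 and Hspe1 and the ratio of Clpp to Clpx are shown in each library (controls grey, SMF orange), with the mean and SD of 3 libraries as black bars. SMF libraries lie below all controls for Clpx at 9.96 to 10.9 FPKM and above all controls for Clpp. The ratio, at 4.76 to 5.24, therefore lies above all controls.

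Of the 5 proteases of the inner membrane and intermembrane space, 2 had a fold above 0 and 3 below (median -0.03, and -0.01 after correction). Spg7, a subunit of the m-AAA protease and the most abundant of them, was at 37.4, 38.0 and 36.7 FPKM among controls, against 39.0, 38.2 and 40.2 among SMF libraries. Its groups did not overlap, before or after the correction, by a narrow gap, and the fold was 0.06 ± 0.038 (adjusted p = 0.39). Afg3l2, its partner subunit, was at 13.3, 13.3 and 13.2 FPKM among controls, against 12.6, 12.7 and 13.1 among SMF libraries (fold -0.05, adjusted p = 0.545). The ratio of Afg3l2 to Spg7 was 0.351 to 0.361 among controls, against 0.324 to 0.332 among SMF libraries. As each gene was itself separated, in opposite directions, this ratio could not overlap, and it overlapped after the correction. Yme1l1, the i-AAA protease, was at 14.7, 14.7 and 15.3 FPKM among controls, against 12.3, 15.7 and 13.0 among SMF libraries. SMF 2 was the highest of all 6 libraries and SMF 1 the lowest, and the fold went from -0.12 to -0.01 with the correction. Without SMF 2 it was -0.22 (limma unadjusted p = 0.00298, adjusted p = 0.0825), and without SMF 1 it was -0.05. Oma1, a stress-activated protease that cleaves Opa1, was at 6.21 ± 0.789 and 6.09 ± 0.955 FPKM, and Htra2, a serine protease of the intermembrane space, at 19.5 ± 0.884 and 19.8 ± 0.278. Aup1, at 64.7 FPKM, shares 25.6% of the exon length of Htra2.

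The prohibitins Phb and Phb2, which assemble into ring complexes of the inner membrane that bind the m-AAA protease, had close levels. Phb2 was at 66.0, 66.2 and 66.0 FPKM among controls, against 69.8, 68.3 and 70.1 among SMF libraries. The SMF libraries were above all controls, before and after the correction, with a fold of 0.07 ± 0.032 (adjusted p = 0.292) and a corrected fold of 0.04. Phb was at 65.7, 66.0 and 65.3 FPKM among controls, against 71.5, 73.4 and 64.1 among SMF libraries, so that SMF 3 was the lowest of all 6. The ratio of Phb to Phb2 was 0.990 to 0.997 among controls, against 0.915 to 1.07 among SMF libraries. Of the 12 pairs of partner genes for which ratios were taken, the groups overlapped in 10, all but the ratios of Clpp to Clpx and of Afg3l2 to Spg7. In those pairs each gene was already separated, in opposite directions, so the ratio could not overlap.

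Within single libraries, SMF 1 held the highest value of the 6 for 12 of the 41 tested members and Control 4 the lowest for 14. The median deviation of the members from their own mean over the 6 libraries was -0.0329, -0.00545 and -0.0326 in Control 2, 3 and 4, and 0.0279, -0.00238 and 0.0229 in SMF 1, 2 and 3, on the log2(FPKM + 1) scale. The SMF libraries lay above the controls, with SMF 2 and Control 3 separated by less than the SD within groups of 0.016. After the composition correction the order of the groups was the same, at -0.0229 to -0.00609 among controls, against -0.00307 to 0.0262 among SMF libraries. The summed FPKM of the 42 genes was 1594 to 1604 among controls, against 1609 to 1647 among SMF libraries. The summed FPKM of all genes was likewise higher in SMF libraries, at 301951 to 309514 against 298090 to 300004.

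**Figure D5:**
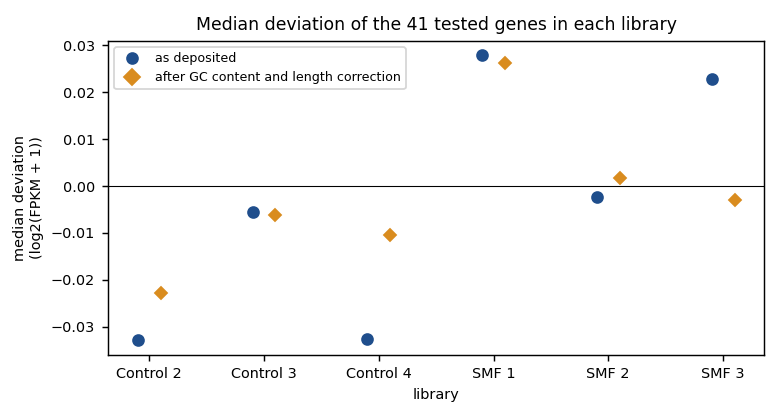
The median deviation of the 41 tested genes from each gene's mean over the 6 libraries is shown per library on the log2(FPKM + 1) scale, as deposited (circles) and after the composition correction (diamonds). SMF 1 is highest at 0.0279 and 0.0262, and SMF 2 and Control 3 lie close together.

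Other genes of the same pathways, listed by function, gave no member past the threshold either. Of 18 tested genes for import not listed above, 10 had a fold above 0 and 8 below (median 0.01), with 0 called higher and 0 lower by limma, and 4 higher and 2 lower at an unadjusted p under 0.05 (beside 9.41% and 8.57% of all tested genes). The smallest p among them was that of Mtch1, which is related to an insertase of the outer membrane, at 59.1 ± 1.55 FPKM among controls, against 65.7 ± 1.61 among SMF libraries (fold 0.15, adjusted p = 0.163). For 4 other matrix quality control genes the median was -0.03 and 1 of 4 was above 0, with Dnaja3, a J-domain cochaperone of mtHsp70, at 19.6 ± 0.224 and 19.0 ± 0.274 FPKM. For 14 other genes of inner membrane quality control and architecture, 6 were above 0 (median -0.02), 3 of them at an unadjusted p under 0.05 (beside 9.41% of all tested genes). The smallest p there was that of Chchd2, an intermembrane space protein, at 37.0 ± 0.942 and 41.5 ± 2.14 FPKM (fold 0.16, adjusted p = 0.174). For 10 genes of outer membrane quality control 4 were above 0 (median -0.02), with Atad1, which extracts mistargeted proteins, at 25.8 ± 1.85 and 22.0 ± 1.97 FPKM (fold -0.22, adjusted p = 0.204). At an unadjusted p under 0.05 that list had 1 gene lower, Atad1, and 1 higher, Mul1, a ubiquitin ligase of the outer membrane named after its values were seen. Mul1 was at 4.38 ± 0.603 and 5.32 ± 0.322 FPKM, without overlap (fold 0.24, adjusted p = 0.241).

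Of 9 genes for regulators tied to the mitochondrial stress response, 7 had a fold above 0 (median 0.10, and 0.06 after the correction), and none was called. At an unadjusted p under 0.05, 5 were higher, and these were named after their values were seen, as Cebpb, Hsf1, Ubl5, Atf5 and Atf4. Of all tested genes 9.41% were higher at that level and 8.57% lower. Cebpb, a transcription factor, had the smallest p of that list (fold 0.35, adjusted p = 0.138, corrected fold 0.23). Hsf1, the heat shock transcription factor, was at 13.1 ± 0.275 FPKM among controls, against 15.3 ± 0.46 among SMF libraries (fold 0.20, adjusted p = 0.148), and its fold was 0.20 after correction as well. Atf5, known in mammals for a part in the mitochondrial unfolded protein response, was at 205.8 ± 15.9 and 231 ± 11.6 FPKM, and its fold went from 0.17 to 0.06 with the correction. The fold of Atf4 went from 0.10 to 0.03. Ddit3, which encodes CHOP, was at 4.85 ± 0.655 and 5.00 ± 1.11 FPKM (fold 0.02, adjusted p = 0.943). Genes commonly read as outputs of the mitochondrial unfolded protein response include Hspd1, Hspe1, Lonp1 and Clpp. Their folds were -0.10, -0.02, 0.04 and 0.17, and -0.09, -0.02, -0.01 and 0.06 after the correction. Among further chaperone and protease genes, Hspa9, Trap1 and Clpx had folds of -0.07, 0.05 and -0.24. None of these passed the main test.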

How the data were processed

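The members and gene lists were chosen with earlier results of these data known. Per the labels, poly(A) RNA was captured on oligo(dT) beads, and cDNA was primed with random hexamers. The authors deposited FPKM values, 1 file per library, and HISAT2 2.1.0, Bowtie2 2.2.3 and build GRCm39 are listed in the submitters' processing notes with no roles. The counting tool and annotation were not given in the sources used here. Symbols, exon lengths and GC content came from GENCODE M21 (23529 of 23886 identifiers), whose build is GRCm38.

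limma 3.58.1 (R 4.3.3) with a variance trend was run on log2(FPKM + 1) for genes at 1 FPKM or more in at least 3 libraries, two-sided, with Benjamini-Hochberg adjustment over all tested genes and a threshold of 0.05. Reads were recovered from FPKM, M21 length and the step of 1 read. Between 97.9% and 98% of values were whole within 0.02 reads, and 1 read in a gene of 1 kilobase was worth 0.0549 to 0.0645 FPKM. Alternatives were other pseudocounts, filters and scalings, leaving out each library, and a replicate block. Further alternatives were limma-voom on the reads, and a loess correction (span 0.3) for GC content and length. The block takes folds only from the replicate numbers that the groups share.

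Named with every library's value were members with an unadjusted p under 0.05, the most abundant member of each role and, in roles of 4 or more, that with the largest fold. Other members with such values, the Clpx and Clpp promoters and the heat shock motif were chosen after values were seen. Plots used matplotlib 3.10.9 (Python 3.11.15).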

Additional observations from a re-analysis of the deposited data

How the results depend on the processing

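No member was called in either direction under 17 of the 18 alternatives, and limma-voom on recovered reads called 1 lower (Clpx, with an adjusted p of 0.0462 to 0.68 over all alternatives). Against 0 and 0 of all tested genes called higher and lower, the counts were 6 and 2 with a filter at 5 FPKM, 13 and 6 with the replicate block, 12 and 9 with the block and the composition correction, 232 and 252 by limma-voom, and 64 and 25 by limma-voom with the correction, and the cause was not tested. With each library left out they were 0 to 2 higher and 0 to 1 lower. The median fold of the members was 0.0086 under TPM, 0.021 under quantile normalization, 0.020 with the block, 0.022 with the correction, 0.015 with both, and 0.016 by limma-voom with the correction, and 0.028 to 0.054 with each library left out. Of 323 values of the 18 named members under alternatives, 295 kept their direction and side of the threshold, 1 passed it and 27 changed sign, none of a called gene. These log2 folds were under TPM Tomm22 -0.020, Timm23 -0.024, under median-of-ratios scaling Pmpca 1.0e-05, under quantile normalization Tomm22 -0.029, Timm23 -0.0083. They were under the block Timm8a1 -0.025, Timm23 -0.060, Pmpca 0.0042, under the correction Timm23 -0.024, Pmpca 0.010, Lonp1 -0.012. They were under the block with the correction Timm8a1 -0.055, Timm23 -0.090, Hspa9 0.015, Pmpca 0.016, Lonp1 -0.011, Yme1l1 0.022, under limma-voom with the correction Timm23 -0.032, Pmpca 0.012, Lonp1 -0.017, Yme1l1 0.013. With each library left out the ranges were Pmpca -0.026 to 0.0088, Timm23 -0.028 to 0.057, Tomm22 -0.0056 to 0.039. Replicate numbers 2 and 3 are shared by the groups. Deviations of same-numbered libraries correlated at 0.0585 and 0.046, and all pairs of a control and an SMF library ranged from -0.148 to 0.107. Whether same-numbered libraries shared a culture or batch was not tested. SMF 1 and Control 4 have no partner of the same number, so the block takes folds from replicates 2 and 3 alone. On those libraries the fold of Clpx was -0.17. With 3 libraries a group, folds under about 0.1 were within the 95% intervals of most members.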
